A study of Mus musculus with 28 samples.

Results

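The 48 genes described here had lower RNA levels in KEAP1-deleted 3LL cells and tumors than in their unedited counterparts, and were still low after NRF2 had been deleted as well. 3LL is the mouse Lewis lung carcinoma line. The genes were picked by their measured levels, as the rows with a gene symbol (Ksr2 left out) whose group mean was at least 1 log2 unit below the wild-type (WT) mean in 4 differences. These differences were KEAP1-KO cells minus WT cells, DKO cells minus WT cells, KEAP1-KO tumors A minus WT tumors A, and DKO tumors B minus WT tumors A. In addition the WT cell mean had to be at least 5. Of 18509 rows with a symbol, 6871 reached that WT level and 48 passed all conditions, which is 0.699% of the 6871. Because these 4 differences chose the genes, they are given below as a description and without a test.

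RNA was sequenced from cultured cells and from transplanted tumors in 28 libraries, 4 in each of 7 groups. WT, KEAP1-KO and double knockout (DKO, Keap1 and Nfe2l2) cells were grown in culture, and the same lines were transplanted into both flanks of albino C57BL/6 male mice at 6 weeks of age, with tumors taken on day 10. In Experiment A the WT tumor was on the left flank and the KEAP1-KO tumor on the right, and in Experiment B the KEAP1-KO tumor was on the left and the DKO tumor on the right. The study made 2 KEAP1-KO lines, each from a single colony with a 1-base insertion in Keap1 exon 2, and DKO cells were cloned from a single colony made from KEAP1-KO cells. The labels do not say which KEAP1-KO line was sequenced or was the parent of the DKO cells, and a difference between the lines that was there before or arose beside the edit cannot be told apart from the edit. In the tumors genotype goes together with flank within each experiment, with experiment for KEAP1-KO tumors B against WT tumors A (both on the left), and with both for DKO tumors B against WT tumors A. The labels do not say whether the 4 libraries of a group came from separate cultures or animals, so p-values measure the spread between these libraries. The extraction protocol attached to the labels speaks of livers, whereas titles and tissue labels name a cell line and tumors.

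KEAP1 is the substrate adaptor of a ubiquitin ligase that keeps the transcription factor NRF2 (gene Nfe2l2) at a low level in unstressed cells. When KEAP1 is lost, NRF2 accumulates and drives genes of detoxification, glutathione synthesis and redox defence. Deleting NRF2 on top of KEAP1 asks which RNA levels return once NRF2 is gone, and the genes described here were selected for not returning to within 1 log2 unit of WT.

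All levels are log2(normalized count + 4), so that 2.0 is a library with 0 reads, and a difference of group means is a log2 difference on that scale, which understates the change of low genes. The libraries held 4222324 to 7524322 reads, with a median of 5619060. The edited gene itself is described first. Keap1 read 9.47, 9.35, 9.56 and 9.42 in the 4 WT cell libraries and between 7.30 and 7.65 in the 8 KEAP1-KO and DKO cell libraries. It is 1 of the 48 genes and was chosen with these values, so they are no separate check of the edit. Nqo1, an NRF2 target reductase and not one of the 48, stood at 9.01 ± 0.11 (SD, n = 4) in WT cells, 12.45 ± 0.11 in KEAP1-KO cells and 6.77 ± 0.09 in DKO cells, and at 6.85 ± 0.19, 12.41 ± 0.11, 12.23 ± 0.22 and 5.93 ± 0.46 in WT tumors A, KEAP1-KO tumors A, KEAP1-KO tumors B and DKO tumors B. Of the 16 genes in a list of NRF2 targets, 16 were lower in DKO than in KEAP1-KO cells and 15 in DKO than in KEAP1-KO tumors B by limma, with medians of -2.32 and -2.34, where 4.85% and 4.64% of all rows were lower. Tumors also hold host cells. The summed level of 5 leukocyte marker genes (normalized counts) was 2.28 to 8.41 in the cell libraries, 1736 to 2123 in WT tumors A, 376 to 451 in KEAP1-KO tumors A, 620 to 817 in KEAP1-KO tumors B and 1161 to 1829 in DKO tumors B. In such bulk samples fewer cells of a type and less RNA per cell cannot be told apart.

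The promoters of 3 genes with large differences and a promoter window of their own are shown first, because they place the genes in the genome and let the bases before the start be searched for the element to which NRF2 binds. The windows run from 250 bases before to 50 bases after the transcription start in RefSeq on GRCm38.p6. 1700006J14Rik, an antisense RNA gene by its annotation, has its window at chr10:120363884-120364183 on the plus strand. The window of Fam131b, a gene of little known function, is chr6:42324591-42324890 on the minus strand, and that of Pdpn, which encodes the membrane glycoprotein podoplanin, is chr4:143299515-143299814 on the minus strand. They are written 5′ to 3′ along the gene, and capitals mark the GC box letters GGGCGG read on either strand.
1700006J14Rik: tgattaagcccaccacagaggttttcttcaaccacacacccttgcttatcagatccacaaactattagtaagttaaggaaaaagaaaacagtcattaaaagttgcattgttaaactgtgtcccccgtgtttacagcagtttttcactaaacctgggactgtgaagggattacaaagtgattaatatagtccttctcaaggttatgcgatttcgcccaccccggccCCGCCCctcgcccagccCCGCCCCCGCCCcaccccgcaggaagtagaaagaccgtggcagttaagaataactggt
Fam131b: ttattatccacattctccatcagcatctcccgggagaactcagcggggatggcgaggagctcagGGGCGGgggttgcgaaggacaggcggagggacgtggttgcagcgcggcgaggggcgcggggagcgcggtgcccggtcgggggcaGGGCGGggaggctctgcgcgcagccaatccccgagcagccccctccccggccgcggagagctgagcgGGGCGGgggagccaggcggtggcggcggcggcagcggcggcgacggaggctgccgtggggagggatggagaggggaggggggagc
Pdpn: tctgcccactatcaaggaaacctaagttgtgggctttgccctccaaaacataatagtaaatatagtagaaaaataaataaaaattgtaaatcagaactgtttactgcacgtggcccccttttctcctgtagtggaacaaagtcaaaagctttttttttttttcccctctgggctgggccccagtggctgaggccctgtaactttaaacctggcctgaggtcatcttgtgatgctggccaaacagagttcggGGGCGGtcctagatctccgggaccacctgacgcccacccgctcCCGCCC
These 3 windows hold 3, 3 and 2 GC boxes. None holds the letters TGACNNNGC, the core of the antioxidant response element, or TGANTCA, an AP-1 site, on either strand. Over the 48 genes, 31 had a window in the table and 45 windows in all. TGACNNNGC was in 5 of the 45 (11.1%) beside 12.4% of all 32851 windows, TGANTCA in 3 (6.67%) beside 7.81%, and GGGCGG in 24 (53.3%) beside 35.7%. The windows with TGACNNNGC belonged to Arhgap6, Eda2r, Rpl22l1, Sall2 and Siah1b, and those with TGANTCA to Celf2 and Ldb3. Median GC content was 59.3% beside 52.7% for all windows. The 48 were chosen with a WT cell mean of at least 5, whereas the 32851 windows were not limited by level. Some genes also had several windows, so these shares are not of like sets. A match is a description of letters only, and no match says nothing about the factor.

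Across the 48 genes the median difference from WT was -1.99 in KEAP1-KO cells, -2.20 in DKO cells, -1.64 in KEAP1-KO tumors A and -1.60 in DKO tumors B. The medians of the 6871 rows at the same WT level were -0.04, -0.04, -0.04 and -0.07. By the rule the 48 reach -1 in each, a limit passed by 4.15%, 5.69%, 4.09% and 4.29% of those rows. The largest differences were -4.70 (Eya2 in KEAP1-KO cells), -4.77 (Celf2 in DKO cells), -4.19 (1700006J14Rik in KEAP1-KO tumors A) and -4.64 (Opn4 in DKO tumors B). Without overlap between its 4 libraries and the 4 WT libraries were 43 of the 48 genes in KEAP1-KO cells, 44 in DKO cells, 41 in KEAP1-KO tumors A and 41 in DKO tumors B. Among the 6871 rows 23.5%, 24.1%, 15.6% and 21.6% were lower without overlap. Just inside the rule, Spns2 had -1.0 in KEAP1-KO cells, Gm4739 -1.01 and Sfxn2 -1.01. Just outside it, Stmn1 reached -0.9998 in DKO tumors B, Hoxd9 -0.99 in DKO cells and Ccdc85b -0.97 in DKO tumors B.

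**Figure D1:**
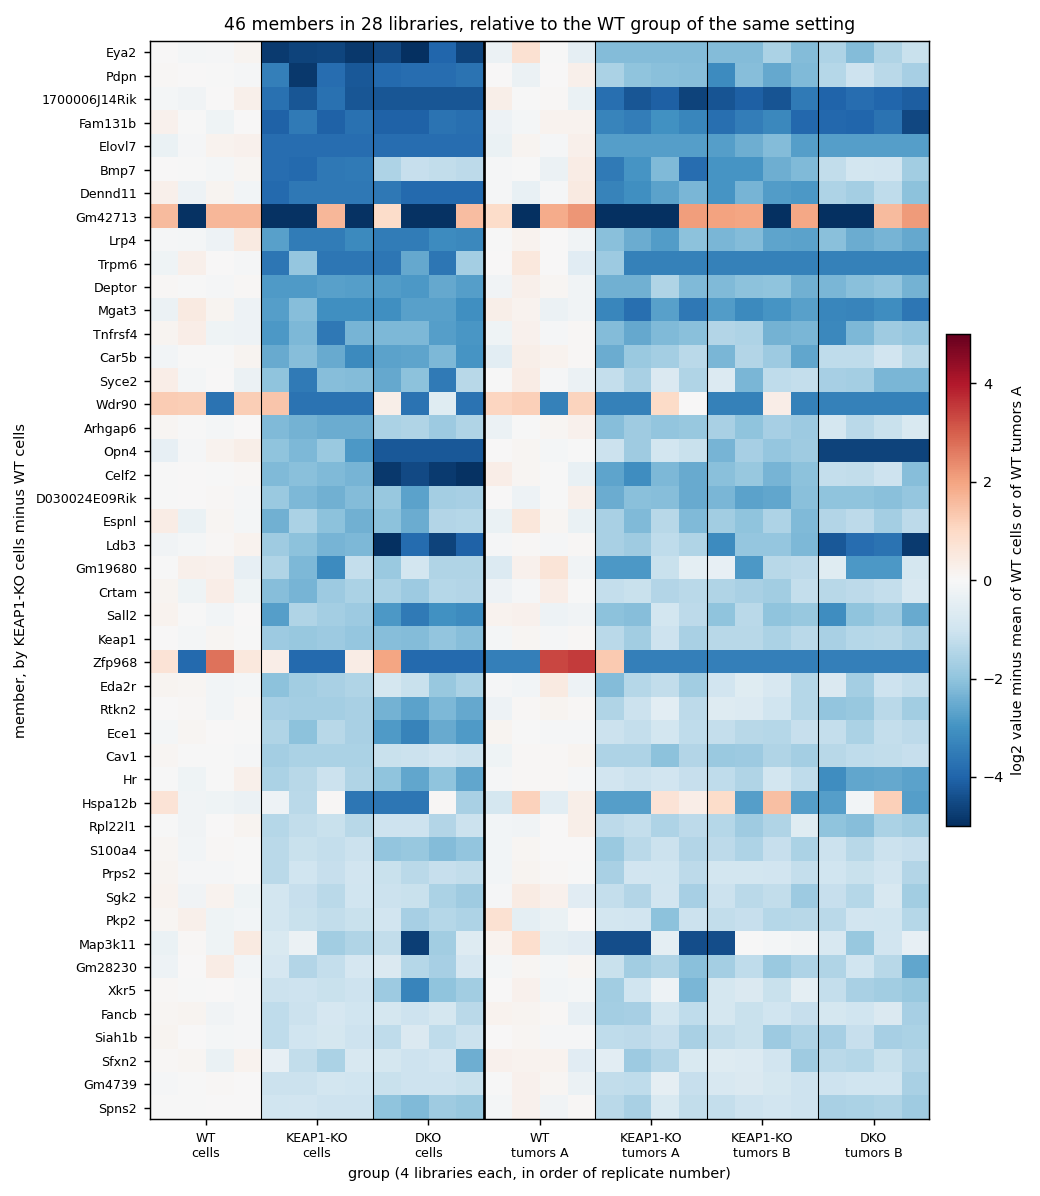
Each row is 1 of 46 of the genes, ordered by KEAP1-KO cells minus WT cells, and each column 1 of the 28 libraries. Colour gives the log2 value minus the mean of WT cells (cell libraries) or of WT tumors A (tumor libraries), with blue lower and red higher and the scale ending at 5 log2 units either way. Most rows are evenly blue in all KEAP1-KO and DKO libraries, while Gm42713, Wdr90 and Zfp968 alternate between libraries within a group and Bmp7 is paler in DKO.

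KEAP1-KO tumors B did not enter the rule, while the WT tumors A they are set against did. Against these, 41 of the 48 genes were lower without overlap in KEAP1-KO tumors B (16.8% of the 6871 rows were), and the median difference was -1.66, beside -0.01 for those rows. By limma, fitted over all 34215 rows that passed the filter on low values in the 16 tumors, 40 genes were lower and 0 higher at an adjusted p under 0.05, where 5.99% of all rows were lower and 4.99% higher. In all 47 of the 48 passed that filter, Zfp968 being the exception. Of the 47, 7 passed only through WT tumors A, the group in which the rule made them high, among them 1700006J14Rik, Elovl7, Eya2, Syce2, Trpm6 and Wdr90. Their 6 calls were fixed in part by that entry, and of the 40 genes that passed without WT tumors A, 34 were lower. Among the 7 tested but not called were Gm19680, Gm42713, Hspa12b, Map3k11, Wdr90 and Xkr5, with differences from -2.46 (Wdr90) to 0.23 (Gm42713). Of these, Xkr5 had -0.81 (SE 0.32, adjusted p = 0.13 by limma), with libraries at 5.63 to 6.28 and no overlap with the 6.62 to 6.98 of WT tumors A. Since WT tumors A helped to choose the genes, only the KEAP1-KO side of this comparison is new, and genotype and experiment cannot be told apart in it. Compared directly, KEAP1-KO tumors B and KEAP1-KO tumors A gave 0 calls among the 48 by limma, with 6 at an unadjusted p under 0.05, the lowest adjusted p being 0.27 for Opn4, and a median difference of 0.04. The background was 0.164% of rows at an adjusted p under 0.05. The share of all rows at an unadjusted p under 0.05 was not counted, so the 6 cannot be weighed.

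The rule had set the means of 4 of the 5 edited groups at least 1 log2 unit below WT. A count over these groups therefore describes the choice, and the share of all rows without overlap in all 5 was not counted. Among the 48, 40 genes were without overlap with WT in all 5 groups. The 8 others included Gm19680, Gm42713, Hspa12b, Map3k11, Sfxn2, Wdr90 and Zfp968. In 6 of these, among them Gm42713, Hspa12b, Map3k11, Wdr90 and Zfp968, some group held both libraries with 0 reads and libraries above 5. Gm42713 did so in all 7 groups, with WT cells at 8.50 to 8.61 in 3 libraries and 2.0 in the other. In Zfp968, a zinc finger gene, WT tumors A read 2.0, 2.0, 8.79 and 8.93. A group mean says little about such a row. These rows are kept in the counts.

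In some genes the edited groups were at or near 0 reads in cells and tumors alike. 1700006J14Rik read 6.20, 6.13, 6.30 and 6.52 in WT cells, 2.55, 2.0, 2.56 and 2.0 in KEAP1-KO cells and 2.0 in each DKO cell library. In tumors it read 6.94, 6.62, 6.71 and 6.30 (WT A), 2.87, 2.37, 2.57 and 2.0 (KEAP1-KO A), 2.32, 2.55, 2.33 and 3.09 (KEAP1-KO B) and 2.63, 2.83, 2.68 and 2.51 (DKO B). WT libraries held 61 to 132 reads of it and no other library more than 4. DKO cells with 0 reads were at least 25.3-fold lower than WT cells, taking 3 reads per library as the floor, which covers counting error only. KEAP1-KO tumors B lay 4.07 below WT tumors A (SE 0.24), given without a test because the row entered the tumor fit through WT tumors A. Fam131b followed the same course. Its WT cells read 6.27, 6.03, 5.81 and 6.05, its KEAP1-KO cells 2.0, 2.52, 2.0 and 2.29 and its DKO cells 2.0, 2.0, 2.34 and 2.28. WT tumors A stood at 6.30, 6.47, 6.73 and 6.75, while KEAP1-KO A, KEAP1-KO B and DKO B tumors ranged over 3.11 to 3.55, 2.65 to 3.33 and 2.0 to 2.86. Its KEAP1-KO tumors B fell by 3.59 from WT tumors A (SE 0.23, adjusted p = 7.2e-08 by limma), and no library of an edited group came within 2 log2 units of any WT library.

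**Figure D2:**
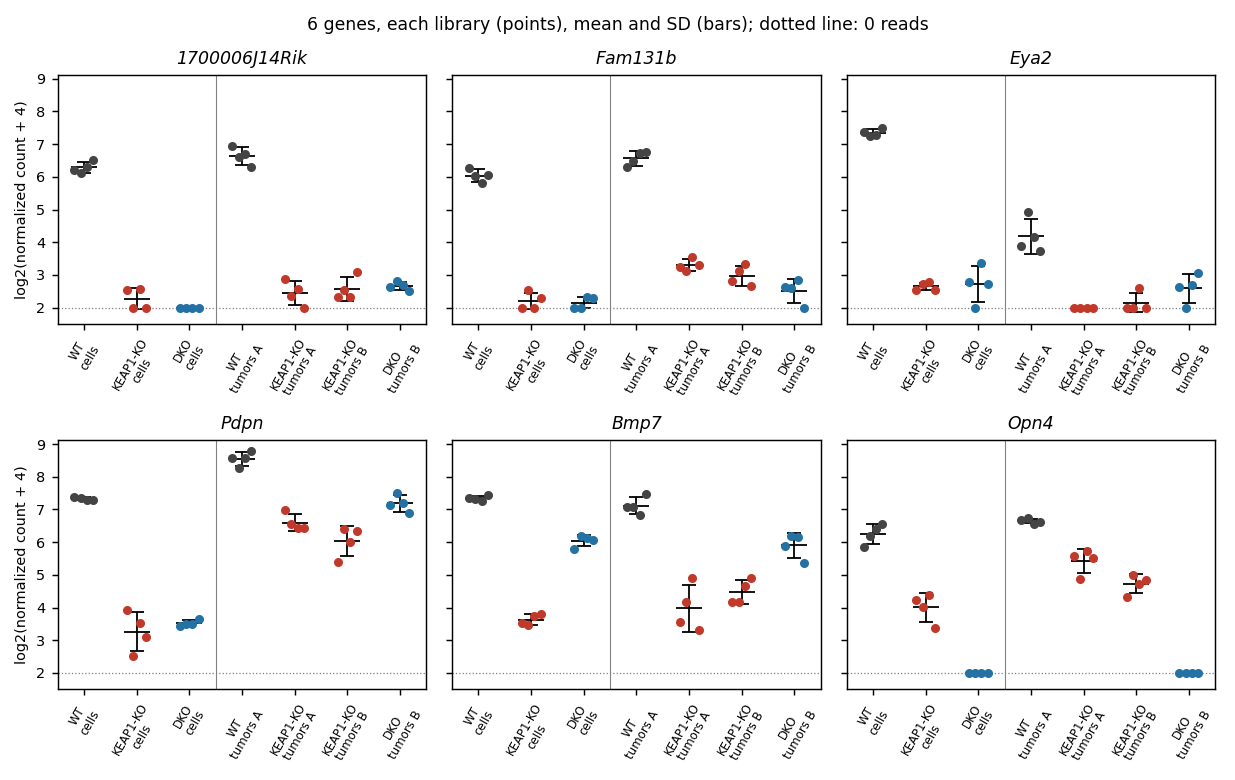
Levels of 6 of the genes in log2(normalized count + 4), 1 point per library, with the mean and SD of each group of 4 as bars, cell groups left of the vertical line and tumor groups right of it. The dotted line is 0 reads. 1700006J14Rik, Fam131b and Eya2 lie near that line in all edited groups, Bmp7 stands higher in DKO than in KEAP1-KO, and Opn4 is at 0 reads in all 8 DKO libraries.

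Among the genes of transcription and chromatin is Eya2, a phosphatase that acts as co-activator of homeodomain factors. Eya2 read 7.38, 7.24, 7.28 and 7.48 in WT cells, 2.55, 2.73, 2.77 and 2.53 in KEAP1-KO cells and 2.79, 2.0, 3.36 and 2.71 in DKO cells. WT tumors A were at only 3.89, 4.94, 4.15 and 3.74, KEAP1-KO tumors A at 2.0 in each library, KEAP1-KO tumors B at 2.0, 2.0, 2.59 and 2.0, and DKO tumors B at 2.63, 2.0, 2.68 and 3.05. The edited groups stayed below WT in both settings without overlap, but the mean of WT tumors A was itself 3.17 below that of WT cells (SE 0.27), a difference between groups that the rule had used. KEAP1-KO tumors A with 0 reads were at least 4.79-fold below WT tumors A, and the mean of KEAP1-KO tumors B was 2.03 lower (SE 0.30), again without a test because the row entered the fit through WT tumors A. The network of Eya2, its homeodomain partners and the Dach corepressors was counted as a list. Of 12 genes 9 had a row and 6 were tested in KEAP1-KO tumors B against WT tumors A, where besides Eya2 itself Six5 (-1.12, adjusted p = 0.012 by limma) was lower, Six4 (0.52, adjusted p = 8.5e-04) was higher, and the median was -0.46 beside -0.02 for all rows. Eya2 was chosen with these WT tumors and its part in the count and median is no result, and 5.99% of all rows were lower and 4.99% higher.

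Sall2, a zinc finger repressor, and Hr, a nuclear receptor corepressor with histone demethylase activity, had lower means in DKO than in KEAP1-KO cells. Sall2 means were 5.87 ± 0.13 (SD, n = 4) in WT cells, 3.93 ± 0.56 in KEAP1-KO cells and 2.72 ± 0.28 in DKO cells. The DKO cell mean was 1.21 below that of KEAP1-KO cells (SE 0.27), given without a test because the row entered the cell fit through WT cells. In tumors B the same step was -0.53 (SE 0.32, adjusted p = 0.39 by limma). Hr read 6.22, 6.01, 6.22 and 6.49 in WT cells, 4.66, 4.83, 5.17 and 4.72 in KEAP1-KO cells and 4.22, 3.63, 4.22 and 3.65 in DKO cells. Its tumors stood at 6.96 to 7.07 (WT A), 5.87 to 6.05 (KEAP1-KO A), 5.49 to 6.09 (KEAP1-KO B) and 3.90, 4.43, 4.45 and 4.34 (DKO B). DKO fell below KEAP1-KO by 0.92 in cells (SE 0.20, adjusted p = 0.0099) and by 1.48 in tumors B (SE 0.15, adjusted p = 6.6e-06, both by limma), again without overlap.

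Pdpn is described first among the surface proteins and receptors. It read 7.38, 7.35, 7.30 and 7.28 in WT cells, 3.92, 2.52, 3.53 and 3.08 in KEAP1-KO cells and 3.44, 3.51, 3.50 and 3.65 in DKO cells. Its tumors stood at 8.57, 8.26, 8.58 and 8.78 in WT A, 6.98, 6.54, 6.44 and 6.42 in KEAP1-KO A, 5.39, 6.41, 6.0 and 6.34 in KEAP1-KO B and 7.14, 7.51, 7.20 and 6.89 in DKO B. WT tumors A were 1.22 above WT cells (SE 0.23, adjusted p = 8.8e-05 by limma), a difference between groups that the rule had used. The difference from WT was -4.06 in KEAP1-KO cells and -1.95 in KEAP1-KO tumors A, and KEAP1-KO tumors B were 2.51 lower than WT tumors A (SE 0.21, adjusted p = 1.0e-06 by limma). DKO tumors B were above KEAP1-KO tumors B by 1.15 (SE 0.21, adjusted p = 0.0018 by limma) without overlap, whereas DKO cells and KEAP1-KO cells differed by 0.26 (SE 0.25, adjusted p = 0.65). Podoplanin is also made by lymphatic endothelium, fibroblasts and other stromal cells. Lyve1 and Flt4, the lymphatic markers with a row, summed to 74.8 to 112 normalized counts in KEAP1-KO tumors B and 56.3 to 92.3 in DKO tumors B, and 7 fibroblast markers to 2811 to 3527 and 10750 to 14597. The part of either in the Pdpn difference was not tested. Of 8 binding partners of podoplanin 6 were tested in KEAP1-KO tumors B against WT tumors A, and 1 was lower (Cd44, -0.82, adjusted p = 0.013 by limma) and 0 higher (5.99% and 4.99% of all rows), with a median of -0.03.

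Lrp4, a receptor for agrin and a brake on WNT signalling, ranged over 5.23 to 5.93 in WT cells, 2.0 to 2.76 in KEAP1-KO cells and 2.0 to 2.34 in DKO cells. In tumors it was 5.91 to 6.27 in WT A and 3.29 to 4.06 over the 12 edited ones, with KEAP1-KO B 2.43 below WT A (adjusted p = 1.4e-06 by limma). Tnfrsf4, the costimulatory receptor OX40, differed from WT by -2.75 in KEAP1-KO cells, -2.54 in DKO cells, -2.25 in KEAP1-KO tumors A and -2.29 in DKO tumors B. Crtam, an adhesion molecule of activated lymphocytes, had -1.96, -1.57, -1.29 and -1.17 in the same order. Both are better known from lymphocytes. In cultured WT cells Tnfrsf4 was at 5.85 to 6.44 and Crtam at 6.63 to 7.18 on the log2 scale. The 5 leukocyte markers summed to at most 8.41 normalized counts in the cell libraries, and the source of the 2 RNAs was not tested. Eda2r, the receptor of ectodysplasin A2, had -1.73 and -1.36 in KEAP1-KO and DKO cells. Its KEAP1-KO tumors B were 0.95 lower than WT tumors A (SE 0.28, adjusted p = 0.040 by limma) with adjusted p from 0.065 to 0.13 in the 6 of 8 fits that leave out 1 library and lose the call. Cav1, the coat protein of caveolae, had WT cells at 11.53 to 11.69, KEAP1-KO cells at 9.90 to 10.01 and DKO cells at 10.48 to 10.63. Its tumors were at 11.45 to 11.79, 9.61 to 10.22, 9.81 to 10.16 and 10.29 to 10.50 in WT A, KEAP1-KO A, KEAP1-KO B and DKO B. DKO was thus above KEAP1-KO without overlap in both settings, by 0.56 in cells (SE 0.05, adjusted p = 6.0e-06) and 0.46 in tumors B (SE 0.12, adjusted p = 0.023, both by limma).

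Opn4, the light receptor melanopsin, and Ldb3, a Z-disc protein of striated muscle, are neighbours on chromosome 14. Opn4 read 5.85, 6.19, 6.41 and 6.54 in WT cells, 4.24, 4.02, 4.39 and 3.36 in KEAP1-KO cells and 2.0 in each DKO library. Its tumors were 6.67, 6.73, 6.56 and 6.62 (WT A), 5.57, 4.88, 5.74 and 5.52 (KEAP1-KO A), 4.32, 5.0, 4.72 and 4.85 (KEAP1-KO B), and again 2.0 in each DKO library. DKO cells and DKO tumors B were at least 24.9-fold and 33.8-fold below their WT groups. Against KEAP1-KO, DKO fell by 2.0 in cells (SE 0.25, adjusted p = 1.7e-04) and by 2.72 in tumors B (SE 0.19, adjusted p = 2.0e-07, both by limma on the log2 scale). Ldb3 read 7.05, 7.13, 7.29 and 7.41 in WT cells, 5.43, 5.18, 4.88 and 4.99 in KEAP1-KO cells and 2.0, 3.37, 2.61 and 3.19 in DKO cells. WT tumors A were 7.22, 7.35, 7.24 and 7.36, KEAP1-KO tumors A 5.66, 5.51, 6.04 and 5.80, KEAP1-KO tumors B 4.17, 5.37, 5.34 and 5.06 and DKO tumors B 3.07, 3.49, 3.60 and 2.51. The step from KEAP1-KO to DKO was -2.33 in cells (SE 0.27, adjusted p = 8.7e-05) and -1.82 in tumors B (SE 0.26, adjusted p = 2.9e-04, both by limma). Both genes thus stood in 3 tiers, WT above KEAP1-KO above DKO, with no overlap between tiers in cells or in tumors.

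Bmp7, a secreted bone morphogenetic protein, went the other way at the second edit. It read 7.36, 7.31, 7.26 and 7.43 in WT cells, 3.51, 3.46, 3.75 and 3.79 in KEAP1-KO cells and 5.80, 6.20, 6.13 and 6.05 in DKO cells. WT tumors A were 7.07, 7.08, 6.83 and 7.46, KEAP1-KO tumors A 3.56, 4.16, 4.91 and 3.30, KEAP1-KO tumors B 4.17, 4.17, 4.66 and 4.91 and DKO tumors B 5.88, 6.19, 6.15 and 5.38. DKO was above KEAP1-KO by 2.42 in cells (SE 0.13, adjusted p = 6.1e-08) and by 1.42 in tumors B (SE 0.31, adjusted p = 0.0066, both by limma), yet below every WT library. Expressed as a share of the gap between KEAP1-KO and WT, the level came back by 65.1% in cells and 54.0% in tumors, the highest of the 10 genes called in tumors B. The gap that remained to WT was -1.30 in cells and -1.21 in tumors. The rule had required a gap of at least 1 log2 unit in both, so an incomplete return was fixed in advance. Ece1, the protease that matures endothelin, differed from WT by -1.64 in KEAP1-KO cells and -2.87 in DKO cells. Its DKO cells were 1.23 below KEAP1-KO cells (SE 0.17, adjusted p = 5.1e-04 by limma), while DKO and KEAP1-KO tumors B differed by -0.03 (SE 0.10, adjusted p = 0.93). WT tumors A were 1.70 above WT cells in Ece1 (SE 0.14, adjusted p = 1.8e-10 by limma), again a difference between groups that the rule had used.

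Celf2, a regulator of splicing, stood out among the RNA-binding and signalling genes for its DKO values. It read 8.12, 8.15, 8.11 and 8.19 in WT cells, 5.94, 6.05, 5.94 and 5.81 in KEAP1-KO cells and 3.30, 3.63, 3.36 and 3.19 in DKO cells. In tumors it read 8.53, 8.31, 8.18 and 7.82 (WT A), 5.57, 5.09, 5.98 and 5.69 (KEAP1-KO A), 6.13, 6.31, 5.90 and 6.14 (KEAP1-KO B) and 7.02, 6.97, 7.18 and 6.09 (DKO B). DKO cells were 2.56 below KEAP1-KO cells (SE 0.11, adjusted p = 1.6e-08 by limma) and DKO tumors B were 0.69 above KEAP1-KO tumors B (SE 0.23, adjusted p = 0.079), with 1 DKO library among the KEAP1-KO ones. Celf2 is also made by leukocytes, whose 5 markers were higher in DKO than in KEAP1-KO tumors B (5 of 5 by limma, median 1.02), and their part in the difference was not tested. Deptor, an inhibitor of mTOR, stood at 9.93 to 10.03 in WT cells, 7.15 to 7.28 in KEAP1-KO cells and 7.12 to 7.41 in DKO cells. DKO and KEAP1-KO differed by 0.03 (SE 0.07) in cells and -0.01 (SE 0.18) in tumors B, and KEAP1-KO tumors B fell by 2.17 from WT tumors A (SE 0.18, adjusted p = 1.2e-06 by limma). Dennd11, a DENN domain protein, had WT cells at 5.62 to 6.13 and all 8 edited cell libraries at 2.0 to 2.32. Its KEAP1-KO tumors B were 3.0, 3.63, 3.18 and 3.09 and its DKO tumors B 4.43, 4.28, 4.69 and 3.92, a difference of 1.10 (SE 0.26, adjusted p = 0.013 by limma).

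Signalling by small GTPases was represented by Arhgap6, a GTPase-activating protein, and Rtkn2, a GTPase-binding protein. Arhgap6 was at 9.75 to 9.97 in WT cells, 7.38 to 7.64 in KEAP1-KO cells and 8.03 to 8.37 in DKO cells. DKO was above KEAP1-KO by 0.78 in cells (SE 0.09, adjusted p = 7.7e-05) and 0.74 in tumors B (SE 0.13, adjusted p = 0.0020, both by limma). Rtkn2 took the opposite course, with DKO below KEAP1-KO by 0.80 in cells (SE 0.09, adjusted p = 7.5e-05) and by 0.80 in tumors B (SE 0.22, adjusted p = 0.029, both by limma). Sgk2, a kinase, differed from WT by -1.10 and -1.38 in KEAP1-KO and DKO cells. Siah1b, a ubiquitin ligase with a close paralog whose reads could be shared, had -1.04 and -1.09.

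Enzymes and transporters were also among the 48. Elovl7, an elongase of long-chain fatty acids, read 5.49, 5.75, 6.01 and 6.03 in WT cells and 2.0 in each of the 8 KEAP1-KO and DKO cell libraries, at least 19.5-fold and 18-fold lower. In tumors it read 4.40, 4.89, 4.70 and 5.0 in WT A, 2.0, 2.30, 2.59 and 2.0 in KEAP1-KO B, and 2.0 in each KEAP1-KO A and DKO B library. Mgat3, which adds the bisecting sugar to N-glycans, had WT cells at 4.74 to 5.49 against 2.0 to 2.91 in KEAP1-KO cells and 2.0 to 2.34 in DKO cells. Its KEAP1-KO tumors B were 2.91 below WT tumors A (SE 0.24, adjusted p = 1.3e-06 by limma). Trpm6, a magnesium channel, differed from WT by -3.20 in KEAP1-KO cells and -2.88 in DKO cells, and all 8 tumors of Experiment B had 0 reads of it, at least 12.7-fold (KEAP1-KO) and 13.6-fold (DKO) below WT tumors A. Spns2, the exporter of sphingosine-1-phosphate, was narrowly inside the rule in KEAP1-KO cells. Its DKO cells were 0.98 below KEAP1-KO cells (SE 0.08, adjusted p = 6.5e-06 by limma) and its DKO tumors B 0.58 below KEAP1-KO tumors B (SE 0.15, adjusted p = 0.028). Sfxn2, a mitochondrial carrier, had -1.01 and -1.32 in KEAP1-KO and DKO cells. Car5b, a mitochondrial carbonic anhydrase, had -2.58 and -2.63, and Prps2, which makes phosphoribosyl pyrophosphate, -1.12 and -1.22.

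The remaining genes act in the cytoskeleton, adhesion, DNA repair, meiosis and translation or are pseudogenes and noncoding RNAs. S100a4, a calcium-binding protein tied to cell motility, had WT cells at up to 14.24, KEAP1-KO cells at 12.80 to 13.06 and DKO cells at 11.98 to 12.24. DKO cells were 0.81 below KEAP1-KO cells (SE 0.07, adjusted p = 1.0e-05 by limma), and the tumors of Experiment B differed by 0.22 (SE 0.14, adjusted p = 0.42). Espnl, an espin-like actin protein, had -2.11 and -1.86 in KEAP1-KO and DKO cells, and Pkp2, a desmosome plaque protein, -1.09 and -1.40. Fancb of the Fanconi anaemia pathway had -1.05 and -1.04, and Syce2 of the synaptonemal complex -2.47 and -2.38. Rpl22l1, a ribosomal protein paralog, had -1.28 and -1.14, with all rows of the gene summed -0.98 and -0.87. D030024E09Rik, a long noncoding RNA gene, had -2.17 and -1.99 and was 2.41 lower in KEAP1-KO tumors B than in WT tumors A (SE 0.16, adjusted p = 1.2e-07 by limma). Gm28230 had -1.08 and -1.15, and the processed pseudogenes Gm4739 and Gm19680 had -1.01 and -1.07 and -2.02 and -1.44. Pseudogene reads may be shared with the parent gene.

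The step from KEAP1-KO to DKO was set side by side in cells and tumors B. In cells limma called 11 lower and 3 higher, where 4.85% of all rows were lower, 3.98% higher and 8.83% called in all. In tumors B it called 5 lower and 5 higher, beside 4.64%, 4.22% and 8.86%. Both groups in cells, and DKO in tumors B, had entered the rule, so these calls describe where the chosen values differ and are not independent of the choice. Called in both settings with the same sign were 8 genes, namely Arhgap6, Bmp7 and Cav1 higher and Hr, Ldb3, Opn4, Rtkn2 and Spns2 lower in DKO. They are 80.0% of the tumor calls and 57.1% of the cell calls. The share of all rows called in both settings with the same sign was not counted. The same lines were used in both settings, so this agreement cannot be read as a trait of the 48. Dennd11 and Pdpn were called in tumors B and not in cells, Celf2, Ece1, Keap1, S100a4, Sall2 and Xkr5 in cells and not in tumors B, and 32 in neither. In 14 of the 48 in cells and 10 in tumors B fewer than 4 of the 8 libraries compared reached 5 normalized counts, so that a row without a call there need not mean an equal level. Elovl7 in cells and Trpm6 in tumors B had 0 reads in all 8. Of the 10 tumor calls, Arhgap6, Bmp7, Dennd11, Hr, Ldb3, Opn4 and Pdpn held under each alternative in which they were tested (Dennd11 was not tested under a filter at a mean of 25 normalized counts), while Cav1, Rtkn2 and Spns2 were lost under 6, 6 and 7 of them, with adjusted p up to 0.071, 0.090 and 0.095. Of the 14 cell calls 13 held where they were tested and Keap1 (-0.25, adjusted p = 0.040) was lost under 9. Sall2, 1 of the 13, had passed the filter only through WT cells and was not tested under a filter at a mean of 25 normalized counts or in a fit of the 2 groups alone. To see whether the step itself differed between tumors and cells, the difference of differences was tested in 1 limma fit over the 28 libraries, a test added after the data had been seen. It was called for 4 of the 48 (3.67% of all rows). The step in tumors B was more positive for Celf2 by 3.26 (SE 0.27, adjusted p = 5.2e-08), Dennd11 by 1.25 (SE 0.32, adjusted p = 0.024), Ece1 by 1.2 (SE 0.20, adjusted p = 4.0e-04) and S100a4 by 1.03 (SE 0.17, adjusted p = 3.5e-04). It was not called for Pdpn (0.89, adjusted p = 0.15) or Bmp7 (-0.99, adjusted p = 0.15). The Dennd11 call was lost without KEAP1-KO tumor B replicate 1 (adjusted p = 0.054) or DKO tumor B replicate 3 (adjusted p = 0.061). In cells 0 of the 8 KEAP1-KO and DKO libraries of Dennd11 reached 5 normalized counts, and 4 had 0 reads. The log2 scale understates a change at that level, so the Dennd11 call does not show that the step differed in fold.

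**Figure D3:**
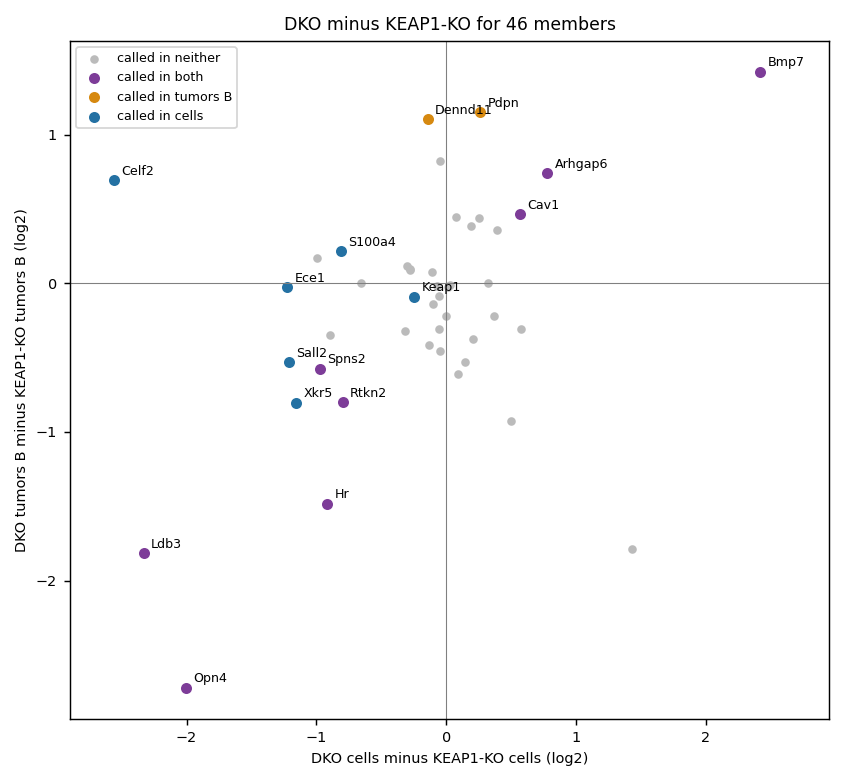
DKO minus KEAP1-KO differences (log2) of 46 of the genes, cells on the horizontal and tumors B on the vertical axis, 1 point per gene, coloured by where limma called them at an adjusted p under 0.05. Most points lie near the centre. Opn4, Ldb3 and Hr are low on both axes, Bmp7 is high on both, and Celf2 is low in cells and above 0 in tumors.

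The WT levels were also compared between tumor and culture. Both groups had entered the rule, which set a floor on the WT cell mean and none on WT tumors A, so the split by direction is a description. Of the 48, 26 were called between WT tumors A and WT cells (38.8% of all rows were), 17 lower and 9 higher in tumors, beside 14.1% and 24.7% of all rows. Lower were Eya2, as above, Rtkn2 (-2.07, SE 0.18, adjusted p = 3.6e-10 by limma), Gm4739 (-1.53), Xkr5 (-1.54), Spns2 (-1.46), Eda2r (-1.44), S100a4 (-1.29) and Prps2 (-1.27) among others. Higher were Ece1, Sgk2 (1.48, SE 0.22, adjusted p = 5.8e-06 by limma), Pdpn, Mgat3 (1.08), Sfxn2 (1.0) and Hr (0.78) among others. Of these calls Hr (0.38, adjusted p = 0.068) and Sfxn2 (0.60, adjusted p = 0.16) were lost with median centring, Sfxn2 also with quantile normalization (0.75, adjusted p = 0.086) and without WT cells 3 (0.89, adjusted p = 0.056), and Mgat3 with a pseudocount of 0.4 (1.17, adjusted p = 0.14, all by limma). The median of all rows was 0.20 in this comparison and -0.19 after centring each library on its median, when the split became 19 lower and 4 higher, and Cav1 turned from 0.08 (SE 0.10, adjusted p = 0.56 by limma) to -0.31 (adjusted p = 0.018), with 0.71 (adjusted p = 1.1e-05) after quantile normalization.

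The genes were next placed on the chromosomes in RefSeq order on GRCm38.p6, with up to 3 measured genes on each side. Of the 48, 46 could be placed, and the rule itself set these at or below -1 in KEAP1-KO cells. The 255 different neighbours outside the 48 had a median of -0.14 in KEAP1-KO cells, and 23 of them (9.02%) were at or below -1. Over all 11230 placed genes outside the 48 the median was 0.03 and 3.94% were at or below -1. Pairs of neighbours within the 48 were Ldb3 and Opn4, Car5b and Siah1b, and Prps2 and Arhgap6. For 10 genes the neighbours had a median at or below -0.5, among them Fancb, Arhgap6, Prps2, Siah1b, Car5b, Map3k11, Sfxn2, Cav1 and Hspa12b. Cav2, which lies beside Cav1 and encodes its caveolar partner, had -0.93 in KEAP1-KO cells and -0.65 in DKO cells.

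**Figure D4:**
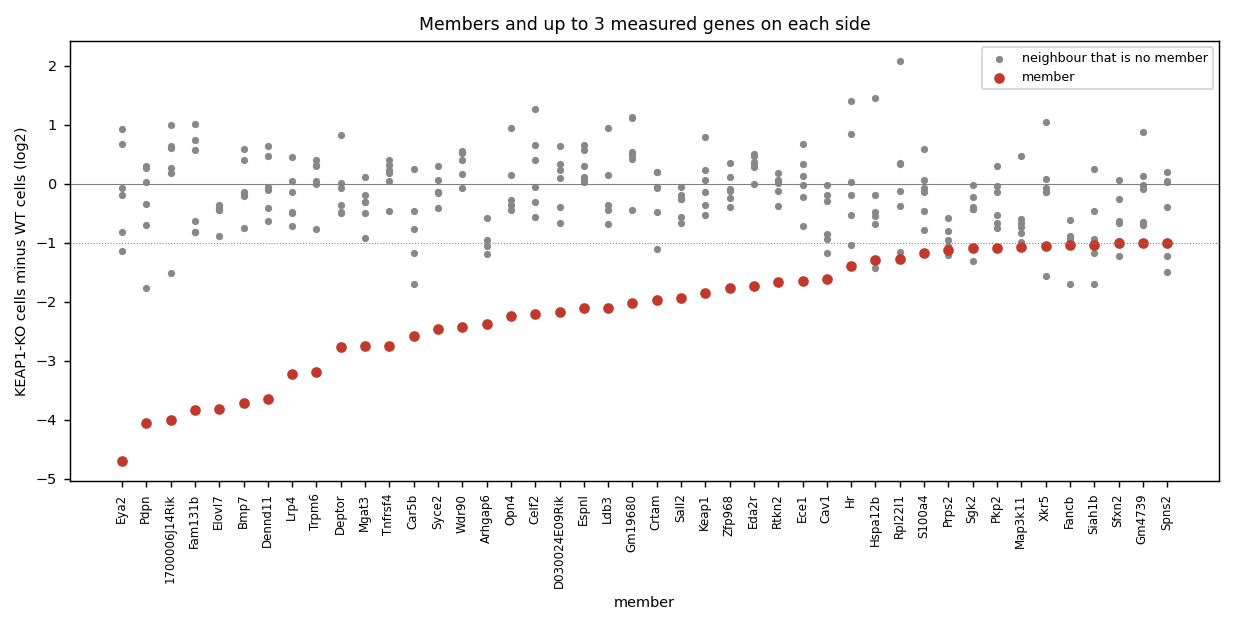
KEAP1-KO cells minus WT cells (log2) for 44 of the placed genes in red, in order of size, and for up to 3 measured genes on each side of each in grey. Eya2, Pdpn, 1700006J14Rik and the others at the left were chosen for low values and lie below their neighbours, which scatter about 0, while the genes near -1 at the right lie closer to theirs.

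Chromosome X held 7 of the 48 among 182 rows at the WT level (3.85%), the highest share of any chromosome, followed by chromosome 14 with 4 of 203 (1.97%). Of the 7, 6 lay in the last stretch of the chromosome in gene order, from Rps6ka3 to the end, whose limits were chosen after the values were seen. Among them were Car5b, Siah1b, Fancb, Prps2 and Arhgap6. The stretch holds 23 rows at the WT level, and the 17 that are not among the 48 had medians of -0.93 in KEAP1-KO cells, -0.98 in DKO cells, -0.88 in KEAP1-KO tumors A, -0.90 in KEAP1-KO tumors B and -0.93 in DKO tumors B. In KEAP1-KO cells 15 of these 17 were at or below -0.5, against 12 (1 of them Eda2r, chosen by the rule) of the 159 rows before the stretch, whose median was 0.03. Car5b (-2.58) and Arhgap6 (-2.38) stood below that common level, while Siah1b, Fancb and Prps2 (-1.04 to -1.12) were close to it. The exceptions in KEAP1-KO cells were Pir, a gene outside the 48 at 0.26, which was at -1.56 in DKO cells, and Gm7331 at -0.09. 3LL cells come from a male mouse. The DNA copy number of the stretch was not measured, and its part in these levels was not tested.

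**Figure D5:**
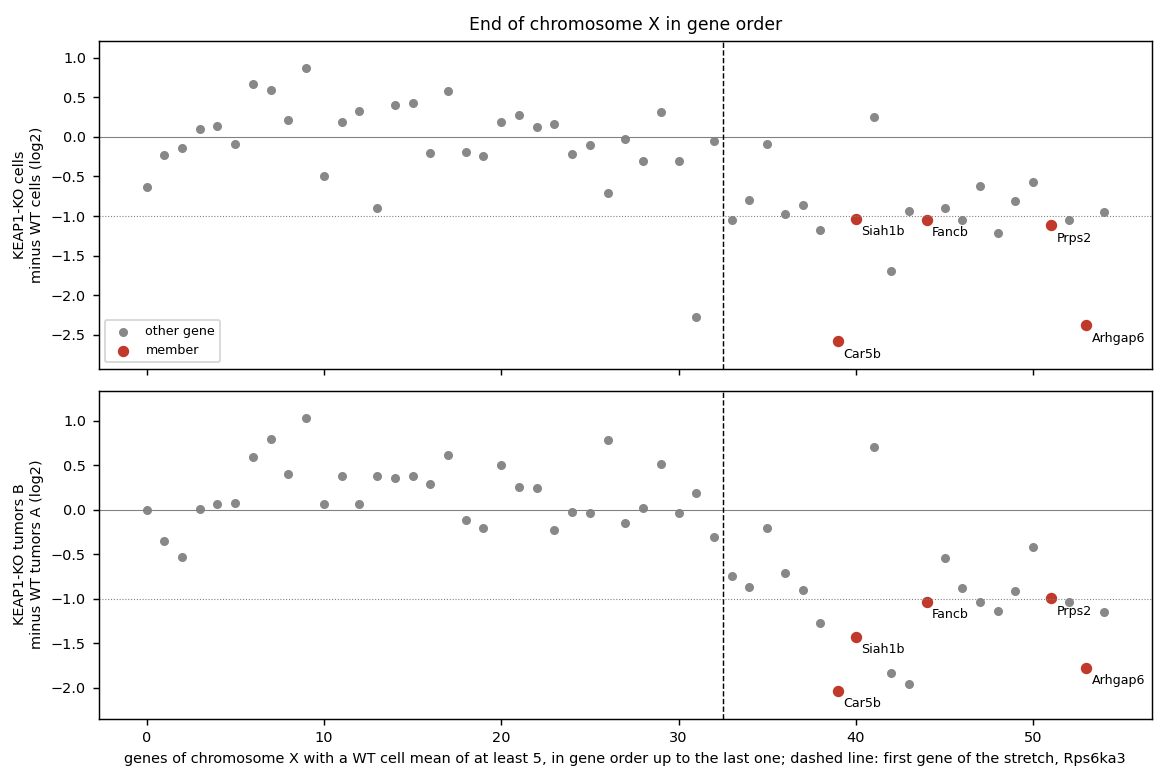
The last rows of chromosome X with a WT cell mean of at least 5 in gene order, with KEAP1-KO cells minus WT cells (upper) and KEAP1-KO tumors B minus WT tumors A (lower), both in log2. From the dashed line at Rps6ka3 onward most points lie near -1, with 5 of the genes drawn in red and Car5b and Arhgap6 lowest among these in the upper panel.

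Many rows of the table are transcripts, so that a low row need not mean a low gene. Of the 48, 19 were gene rows and 29 transcript rows, among them 10 retained-intron, 7 nonsense-mediated-decay and 7 processed transcripts. Eya2 (processed transcript) and Bmp7 (retained intron) are such rows. For 15 genes the table held more than 1 row, and the row among the 48 made up a median of 94.4% of the gene's total in WT cells. With all rows of the gene summed, 12 of the 15 kept all 4 differences at or below -1. Among the others were Rpl22l1 and Wdr90 (-0.26 in KEAP1-KO cells). The other 33 had 1 row, 14 of them a transcript.

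Outside the 48, the genes whose 7 group means followed the mean of the 48 most closely were Gm29340 (Pearson r = 0.994 over the 7 group means), Gm37639 (0.992), Rab11fip2 (0.982), Rab9 (0.978) and Hsdl2 (0.978). Their differences from WT ran from -0.47 (Gm37639) to -1.21 (Rab9) in KEAP1-KO cells and from -0.50 to -1.02 in DKO tumors B. Rab9 lies in the chromosome X stretch.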

How the data were processed

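RNA from cells and tumors was ribosomal RNA depleted and made into strand-specific libraries by the authors. The deposited values are log2(normalized count + 4) for 43143 genes or transcripts. Salmon is named in the submitters' processing notes, and the study's methods add GENCODE mouse transcript sequences as its reference. The genome build is not given in the sources used here. Undoing the log gave whole reads in every library (100% of low values within 0.05 read), 4222324 to 7524322 per library, and precision is limited by these depths. No count test was run. Groups came from the labels, and other columns of values numbered 0. Group means were compared with limma 3.58.1 (lmFit, eBayes with trend) in R 4.3.3 on the deposited log2 values, over the rows in which 4 or more of the fitted libraries reached 5 normalized counts, with Benjamini-Hochberg adjustment over all of them. Fits took the 16 tumors, the 12 cell libraries or, for tumors against cells, all 28 libraries, and were checked on simulated data. Some of the 48 genes enter the counts but are not reported by name here. The 48 genes and the gene lists were chosen with earlier results of these data known. Named are the other genes of the 48, the listed genes, Keap1, Nfe2l2, Nqo1, rows just outside the rule, neighbouring genes and the 5 rows most alike in profile. Nfe2l2 has a processed transcript row only (WT cells 5.32, DKO cells 5.06), which does not test its edit. Gene positions and promoters came from RefSeq on GRCm38.p6, and row types from GENCODE vM21, an earlier release than the authors' transcript set. Alternatives changed the pseudocount (0.4), filter, scaling, spread model, libraries and replicate block.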

Additional observations from a re-analysis of the deposited data

Results flagged for a closer look

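Among the groups of 4 libraries with any spread, 309 in all over 46 of the genes, 32 held 1 library far from the other 3 by Dixon's gap ratio. Chance alone would give about 1 in 20, or 15.4. These 32 belong to 18 genes, and the values are log2(normalized count + 4).

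In some rows libraries of a group were at 0 reads beside others above 5. Gm42713 had 8.60 in KEAP1-KO cells 3 and 9.08 in KEAP1-KO tumors A 4 with the others at 2.0, and 2.0 in KEAP1-KO tumors B 3 and WT cells 2 with the others above 8. Wdr90 had 7.10 in KEAP1-KO cells 1 and 5.72 in KEAP1-KO tumors B 3, and 2.0 in WT cells 3 and WT tumors A 3. Zfp968 had 7.88 in DKO cells 1 and 6.75 in KEAP1-KO tumors A 1. Map3k11 had 5.95 in KEAP1-KO tumors A 3 and 2.0 in KEAP1-KO tumors B 1.

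In genes near 0 reads the counts behind the single library and the others were low. Dennd11 had 2.32 in DKO cells 1 and 2.0 in KEAP1-KO cells 1, and Eya2 had 2.59 in KEAP1-KO tumors B 3. Syce2 had 2.0 in KEAP1-KO cells 2 with the others at 3.36 to 3.51. Trpm6 had 3.67 in KEAP1-KO cells 2 and 3.56 in KEAP1-KO tumors A 1 with the others at 2.0.

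The others had a level in each library. Cav1 had 9.90 in KEAP1-KO cells 1 and 9.61 in KEAP1-KO tumors A 3. Keap1 had 7.47 in DKO cells 3 and 7.30 in KEAP1-KO tumors B 3, which lie 0.16 above and 0.20 below the nearest library. Gm4739 had 8.31 in DKO tumors B 4 and 9.52 in KEAP1-KO tumors A 3. Hspa12b had 6.29 in WT cells 1, Pkp2 3.67 in KEAP1-KO tumors A 3, Rpl22l1 6.75 in DKO cells 3 and Rtkn2 8.95 in WT cells 3. Sfxn2 had 2.89 in DKO cells 4 and 5.73 in WT tumors A 4, Siah1b 5.21 in DKO tumors B 2 and Spns2 7.85 in KEAP1-KO cells 2. KEAP1-KO tumors A 3 and KEAP1-KO tumors B 3 held the most such values, 4 each.

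For 4 genes the DKO minus KEAP1-KO difference was itself different between tumors B and cells by limma. The differences of differences were 3.26 for Celf2, 1.25 for Dennd11, 1.2 for Ece1 and 1.03 for S100a4. The summed leukocyte markers were also higher in DKO than in KEAP1-KO tumors B (1161 to 1829 against 620 to 817), and their part in these values was not tested.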

How the results depend on the processing

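The number of genes depends on the rule's limits. A limit of -0.8 gave 86, one of -1.5 gave 16, and a WT cell mean of at least 6 gave 30. Leaving out 1 library in turn gave 44 to 53 genes by the rule, 34 to 40 lower in KEAP1-KO tumors B than in WT tumors A, 7 to 9 called between DKO and KEAP1-KO tumors B, 0 between KEAP1-KO tumors B and A, 13 to 14 between DKO and KEAP1-KO cells, 22 to 26 between WT tumors A and WT cells, and 3 to 5 for the difference between tumors and cells. Summing all rows of each gene kept 45 of the 48, a check added after the data had been seen. Under median centring Cav1 was -0.31 in WT tumors A minus WT cells (adjusted p = 0.018). The same-numbered libraries of the groups compared did not deviate together (correlations from -0.03 to 0.05), so the numbers were not taken as pairs. Of 4 libraries, 0 to 2 correlated best with their own number in each pair of groups but WT and DKO cells, where 4 did (correlations of 0.01 to 0.04), a hint from the data for a pair that was not tested. With the replicate block 40, 10, 0, 14, 25 and 4 genes were called in the 6 comparisons in the order above. Within the 10 the block lost Spns2 (adjusted p = 0.095) and added Car5b (0.82, adjusted p = 0.048). Eda2r, Sfxn2 and Syce2 lost their call in KEAP1-KO tumors B against WT tumors A under at least 1 alternative. Depth limits the genes near 0 reads, for which 3 reads per library are the floor. KEAP1-KO tumors B shared WT tumors A with the rule. The labels do not say whether more than 1 KEAP1-KO clone is among the libraries, so clones could not be compared.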

Other observations

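The tumors differed in the markers of host cells as well as in the 48 genes. In KEAP1-KO tumors B against WT tumors A limma called 5 of 5 leukocyte markers, 5 of 6 macrophage markers and 2 of 7 fibroblast markers lower, with medians of -1.51, -0.73 and -0.59, and none of these 18 higher, where 5.99% of all rows were lower and 4.99% higher. Of the other lists, 0 of 5 endothelial, 0 of 2 lymphatic, 0 of 2 skeletal muscle and 1 of 3 epithelial markers were lower, and 0 were higher. In DKO against KEAP1-KO tumors B, 5 of 5 leukocyte, 3 of 6 macrophage and 3 of 7 fibroblast markers were higher, with medians of 1.02, 0.52 and 0.60, and 0 lower, where 4.22% of all rows were higher and 4.64% lower. Their part in the levels of the 48 genes was not tested in tumors.

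In cells the Eya2 network was counted in the same way. Of the 6 genes tested between DKO and KEAP1-KO cells 2 were lower and 2 higher by limma (4.85% and 3.98% of all rows), with a median of 0.04, and the podoplanin partners had 0 lower and 1 higher of 6, with a median of 0.01.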
